A study of Mus musculus with 6 samples.

Results

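The brush border peptidases are 9 genes for enzymes that cut peptides at the luminal surface of the small intestine: Anpep, Enpep, Naaladl1, Dpp4, Ace, Mme, Mep1a, Mep1b and Tmprss15. They were taken by symbol, 1 transcript entry each, from the 21950 genes with a value in both genotypes. The tissue was ileum, the last stretch of the small intestine, from C57BL/6 mice aged 24 weeks. Each genotype was represented by 3 mice: wild type animals, and TLR4ΔIEC animals in which Tlr4, the receptor for bacterial lipopolysaccharide, is conditionally deleted in the intestinal epithelium. The promoter that drives the deletion is not named in the labels. The deletion is not aimed at cells outside the epithelium. RNA depleted of ribosomal RNA was sequenced from 1 barcoded library per mouse, and the deposited values are 1 pooled column per genotype. Each value below is thus that of a pool of 3 mice, with no spread between mice, no standard deviation and no p-value. Each genotype also had its own sequencing pool, so genotype and sequencing pool cannot be told apart.

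Dietary protein is first cut by pancreatic proteases in the lumen and then by peptidases anchored in the microvillus membrane of enterocytes. Exopeptidases remove residues from the ends of peptides and endopeptidases cut inside them, which leaves amino acids and short peptides for the transporters of the same membrane. Several of these enzymes also inactivate hormones and are found on cells other than enterocytes: Ace lines blood vessels, Dpp4 (also known as CD26) is on T cells, Anpep (CD13) is on myeloid cells and Mme (CD10) is on stromal cells. Whole ileum holds all of these cells.

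The wild type column listed 22724 transcript entries and the TLR4ΔIEC column 22687, with coverage sums of 699800 and 698473 reads per base. Both were scaled by the median of ratios to a mean total of 1000000 units. A unit is an average per base of transcript, so levels can be set side by side between genes. Log2 ratios (TLR4ΔIEC over wild type) were taken of units plus a pseudocount of 1. Tlr4 itself was weakly covered, at 2.90 units (wild type) and 2.24 units (TLR4ΔIEC), and the value does not isolate the deleted stretch. Markers of position along the gut did not all match the ileal label equally in both columns. The ileal bile acid binding protein Fabp6 was at 15350 and 13628 units. Gata4, a regulator of the upper small intestine, was under 0.5 units in both columns. Fabp1, another marker of the upper small intestine, was at 192 units in wild type and lower in TLR4ΔIEC (log2 ratio -3.20). Slc40a1, from the same marker list, was higher (0.51). Whether both pools came from the same stretch of ileum was not tested.

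The 9 levels spanned about 4 orders of magnitude and kept nearly the same order in both genotypes. Anpep was the highest in wild type (1237 units, rank 102 of all genes by mean), followed by Naaladl1 (853 units), Enpep (664 units), Mep1b (417 units) and Mep1a (349 units). Dpp4 (47.0 units), Ace (44.1 units) and Mme (15.0 units) stood well below these, and Tmprss15 (0.10 units) was near the bottom of the table. By annotation the 9 genes lie on 8 chromosomes, with 14 to 27 exons in the first matched transcript and 38.0% to 56.6% G and C. The transcripts richest in G and C were Naaladl1 (56.6%) and Ace (55.6%), with log2 ratios of -0.88 and -0.14. Whether G and C content goes with the ratio was not tested. In TLR4ΔIEC the order differed in 1 place, where Enpep (528 units) stood above Naaladl1 (462 units). With 1 value per genotype, it cannot be said which neighbours in this order differ beyond the spread between mice.

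**Figure D1:**
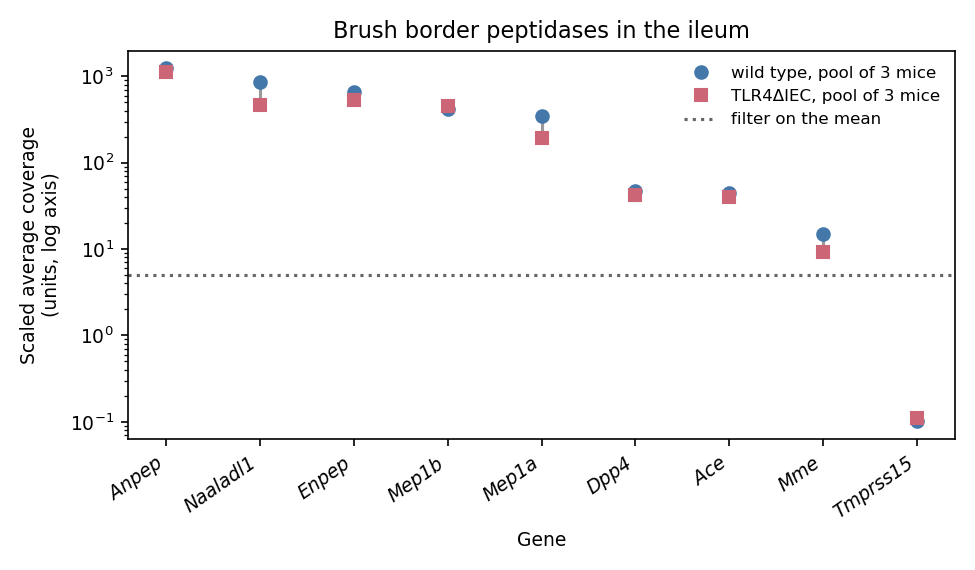
Scaled average coverage of the 9 peptidase genes on a log axis, with a circle for the wild type pool and a square for the TLR4ΔIEC pool, ordered by wild type level. The dotted line is the filter of 5 units on the mean, and Tmprss15 is the gene under it. The widest gaps between circle and square are those of Naaladl1, Mep1a and Mme.

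Of the 9 genes, 8 passed the filter of 5 units on the mean of both columns, and 7 of those 8 were lower in the TLR4ΔIEC column. Across all 8891 genes that passed, 47.4% were lower (37.9% to 47.4% over the scalings tried), and of the 901 genes with a mean of 100 units or more, 522 were lower. None of the 8 differed by 2-fold or more, a size reached downward by 2.79% and upward by 1.29% of all genes (248 and 115 genes, or 189 and 154 after scaling by sums that leave out the 50 most covered genes). The median log2 ratio of the 8 was -0.24, against 0.03 over all genes tested and -0.10 over those 901 genes, the range in which 5 of the 8 lie. The ratios ran from -0.88 to 0.11. They fell into a lower set of Naaladl1, Mep1a and Mme, an intermediate Enpep, and Anpep, Dpp4, Ace and Mep1b near 0. Across those 901 genes the standard deviation of the log2 ratio was 0.55, which describes the spread between genes and not between mice.

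**Figure D2:**
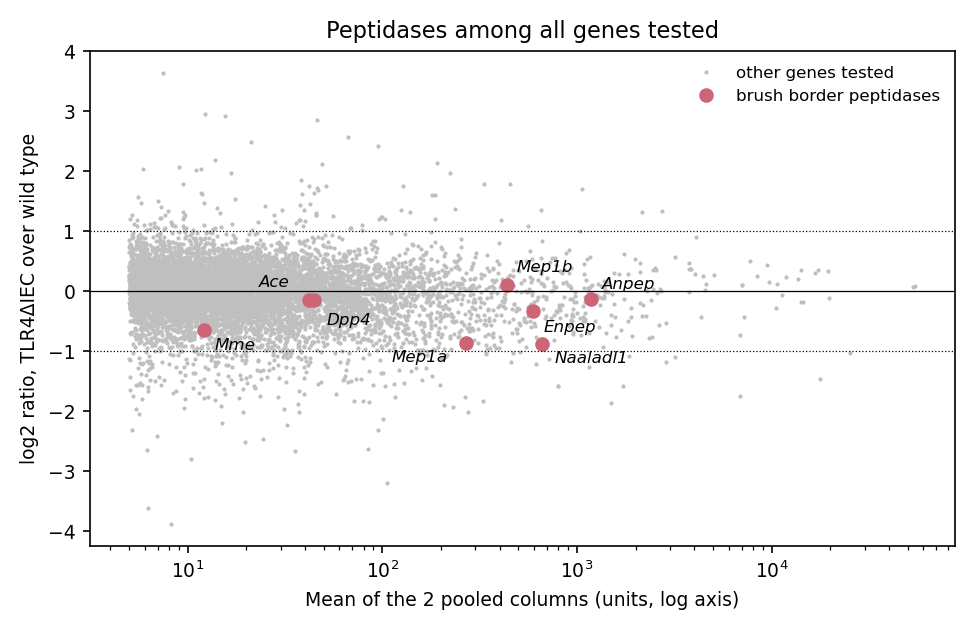
Log2 ratio of TLR4ΔIEC over wild type against the mean of both pooled columns (log axis), with 1 grey point per gene tested and the 8 peptidases above the filter in colour. Dotted lines mark a 2-fold difference in either direction. Naaladl1 (-0.88) and Mep1a (-0.86) lie just inside the lower line and Mep1b (0.11) is the only peptidase above 0.

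Summed over the 9 genes, the peptidases held 3627 units (wild type) and 2853 units (TLR4ΔIEC), or 0.354% and 0.293% of the column. The difference of 774 units came mainly from Naaladl1, which was 392 units lower and made up 50.6% of it, and from Mep1a, 158 units lower (20.4%). Enpep was 137 units lower and Anpep 107 units lower. Mep1b was 34.0 units higher. Differences in units depend on the scaling, and these parts were taken under the median of ratios only. Without Naaladl1 and Mep1a, which were set aside after their values were seen, the other 7 genes summed to 2425 and 2200 units. These were 0.237% and 0.226% of the column. The share of the peptidase sum held by Anpep was 34.1% in wild type and 39.6% in TLR4ΔIEC, and that held by Naaladl1 was 23.5% and 16.2%.

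**Figure D3:**
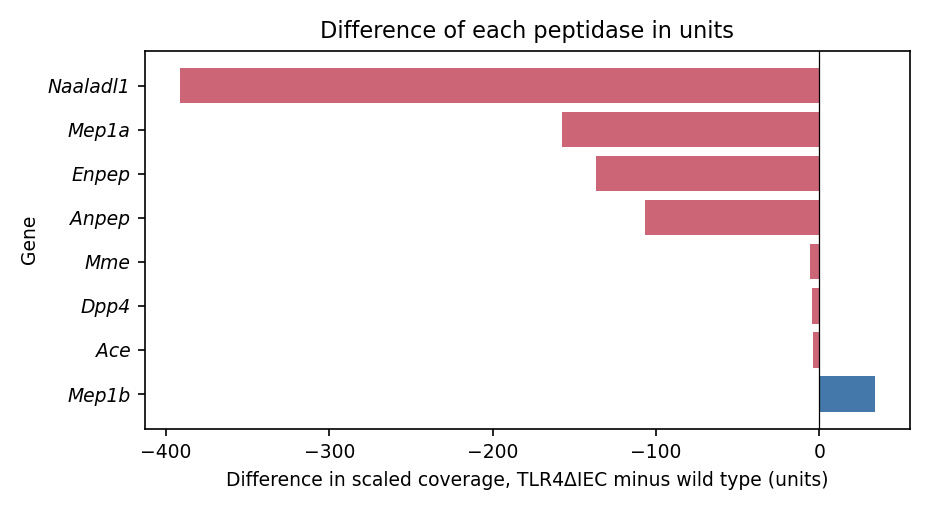
Difference in scaled coverage, TLR4ΔIEC minus wild type, in units, for the 8 peptidases above the filter, with bars to the left for genes lower in TLR4ΔIEC. Naaladl1 has the longest bar, at 392 units lower, and Mep1b is 34.0 units higher.

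The exopeptidases that start at the amino end of peptides were led by Anpep (aminopeptidase N, chromosome 7, 79821803 to 79861059, minus strand, mm10), which releases neutral residues. Its average coverage was 844 (wild type) and 808 (TLR4ΔIEC), resting on 2888266 and 2767458 bases of reads. After scaling these were 1237 and 1130 units, a log2 ratio of -0.13. Anpep was thus nearly level between the pools: 35.1% of all genes tested had a ratio as low or lower. Enpep (aminopeptidase A, chromosome 3, 129269175 to 129332720, minus strand), which releases acidic residues and also cuts angiotensin, was covered at 453 and 378, or 664 and 528 units, a log2 ratio of -0.33. A ratio as low was found in 20.8% of all genes tested. Both enzymes belong to the same family of zinc aminopeptidases, and Anpep was covered 1.86 times as deeply as Enpep in wild type and 2.14 times in TLR4ΔIEC.

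Naaladl1 (chromosome 19, 6105782 to 6115792, plus strand) belongs to the family of glutamate carboxypeptidase and is known as an aminopeptidase of the ileal brush border. Its coverage was 582 in wild type and 330 in TLR4ΔIEC, resting on 1302810 and 739201 bases of reads. In units this was 853 and 462, so the gene was 1.85-fold lower in TLR4ΔIEC (log2 ratio -0.88). Ratios as low or lower were found in 4.02% of all genes tested and in 7.77% of the genes with at least 100 units. Against Anpep in the same column, Naaladl1 stood at 0.690 of its coverage in wild type and 0.409 in TLR4ΔIEC, a measure that does not depend on the scaling. The averages of Naaladl1 ran over 2238 bases, against 2491 bases in the transcript that matches its entry in GENCODE. Its relatives in the list of other surface peptidases, Folh1 (0.14 units in both columns) and Naalad2 (0.34 and 0.35 units), were near the bottom of the table and were named after their values were seen.

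Dpp4 (dipeptidyl peptidase 4, chromosome 2, 62330073 to 62412231, minus strand) takes dipeptides off the amino end where the second residue is proline or alanine, and inactivates incretin hormones. Its coverage was 32.1 in wild type and 30.2 in TLR4ΔIEC, or 47.0 and 42.2 units, a log2 ratio of -0.15. Ace (angiotensin-converting enzyme, chromosome 11, 105967945 to 105989964, plus strand) takes dipeptides off the carboxyl end. Its coverage was 30.1 and 28.6, or 44.1 and 39.9 units, a log2 ratio of -0.14. These genes therefore stood at nearly the same level as each other, and both kept their place against Anpep: Dpp4 was at 0.0380 of the coverage of Anpep in wild type and 0.0373 in TLR4ΔIEC, and Ace at 0.0357 and 0.0353. In both, the averages ran over a length (6375 bases for Dpp4 and 6638 for Ace) longer than the matched GENCODE transcript of 5268 and 4906 bases. For Ace this transcript was the first of 2 matched. Each entry also joins several RefSeq transcripts, so on length their levels per base are less certain than those of Anpep and Mep1a. Both genes also overlap an antisense gene model (Gm13561 for Dpp4 and Gm11651 for Ace, the latter covered at 0.106 and 0.0608). Anpep overlaps a gene model on its own strand (Gm44974, 1279 bases), and Enpep, Mep1b and Tmprss15 overlap pseudogenes on the other strand. Whether counting used strand is not known. In whole tissue, fewer cells of a type and less RNA per cell cannot be told apart.

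The endopeptidases were split. Mep1a (meprin alpha, chromosome 17, 43474324 to 43502812, minus strand) was covered at 238 (wild type) and 137 (TLR4ΔIEC), resting on 695058 and 399353 bases of reads. In units this was 349 and 191, so the gene was 1.82-fold lower in TLR4ΔIEC (log2 ratio -0.86). As low a ratio or a lower one was found in 4.22% of all genes tested and in 8.32% of those with at least 100 units. Mep1b (meprin beta, chromosome 18, 21061923 to 21100199, plus strand), whose protein is anchored in the membrane and holds meprin alpha there, was covered at 284 and 323, or 417 and 451 units, a log2 ratio of 0.11. The partner subunits thus lay on opposite sides of 0. Coverage of Mep1a was 0.836 of that of Mep1b in wild type and 0.423 in TLR4ΔIEC, a difference of -0.98 on the log2 scale between the columns.

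Mme (neprilysin, chromosome 3, 63241537 to 63386030, plus strand), which cuts small peptides such as tachykinins, was the least covered of the 8 genes above the filter. Its coverage was 10.3 in wild type and 6.65 in TLR4ΔIEC, resting on 65582 and 42547 bases of reads, or 15.0 and 9.30 units, a log2 ratio of -0.64. That ratio was as low or lower in 8.77% of all genes tested. The entry of Mme joins 3 RefSeq transcripts. Its averages ran over 6394 bases, against 8039 bases in the first of 3 matched GENCODE transcripts, so its level per base is less certain too. Among the substrates in the list fixed for hormones and their receptors, the tachykinin gene Tac1 was at 6.76 and 14.2 units (0.97) and was chosen after its value was seen.

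Tmprss15 (enteropeptidase, chromosome 16, 78953008 to 79091097, minus strand) starts the digestive cascade in the duodenum by activating trypsinogen. Its coverage was 0.069 (wild type) and 0.079 (TLR4ΔIEC), or 0.10 and 0.11 units. The smallest whole numbers of read bases that give these averages are 136 over 1975 bases and 166 over 2103 bases, so the averages did not run over the same length, and no ratio was read from them. Genes of pancreatic proteases were mostly weakly covered: of 15 pancreatic proteases and inhibitors, 10 had a value in both columns and 2 passed the filter, Cela1 (6.89 and 11.1 units, chosen after its value was seen) and the trypsin inhibitor Spink3 (608 and 374 units, log2 ratio -0.70).

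Printed here are the promoters of the 5 members with at least 20 units that RefSeq's table holds on chromosomes shown here (GRCm38.p6, the assembly behind mm10). They set Mep1a (log2 ratio -0.86) beside Anpep, Ace, Dpp4 and Enpep (-0.13 to -0.33). Naaladl1 and Mep1b, which had the lowest and highest ratio of the members above the filter, have no window in that table. Of the 2 starts listed for Ace, the one at the 5′ end of the gene is shown. Each window is the 250 bases before the RefSeq start, 5′ to 3′ on the strand of the gene. Capitals mark matches, on either strand, to the letters searched for regulators of the intestinal epithelium.
Anpep, chr7:79848211-79848460, minus strand: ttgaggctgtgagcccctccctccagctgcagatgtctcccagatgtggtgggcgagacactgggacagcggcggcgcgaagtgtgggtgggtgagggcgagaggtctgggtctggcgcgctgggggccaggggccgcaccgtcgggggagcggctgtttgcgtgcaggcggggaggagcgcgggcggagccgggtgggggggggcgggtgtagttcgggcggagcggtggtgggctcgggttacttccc
Enpep, chr3:129332750-129332999, minus strand: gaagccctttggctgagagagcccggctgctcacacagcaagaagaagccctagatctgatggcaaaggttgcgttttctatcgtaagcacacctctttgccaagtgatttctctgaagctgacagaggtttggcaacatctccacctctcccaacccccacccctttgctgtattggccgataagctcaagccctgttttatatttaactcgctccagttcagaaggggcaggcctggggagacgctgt
Mep1a, chr17:43502774-43503023, minus strand: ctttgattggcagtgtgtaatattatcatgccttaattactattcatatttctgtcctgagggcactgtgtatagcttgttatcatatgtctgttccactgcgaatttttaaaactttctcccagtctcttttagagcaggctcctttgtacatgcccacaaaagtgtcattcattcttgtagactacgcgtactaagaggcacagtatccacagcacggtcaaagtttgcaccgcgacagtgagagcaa
Dpp4, chr2:62412232-62412481, minus strand: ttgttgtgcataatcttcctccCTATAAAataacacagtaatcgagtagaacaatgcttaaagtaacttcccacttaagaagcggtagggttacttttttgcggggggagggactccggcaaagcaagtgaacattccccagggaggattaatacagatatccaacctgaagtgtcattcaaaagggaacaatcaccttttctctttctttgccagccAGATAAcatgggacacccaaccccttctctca
Ace, chr11:105967698-105967947, plus strand: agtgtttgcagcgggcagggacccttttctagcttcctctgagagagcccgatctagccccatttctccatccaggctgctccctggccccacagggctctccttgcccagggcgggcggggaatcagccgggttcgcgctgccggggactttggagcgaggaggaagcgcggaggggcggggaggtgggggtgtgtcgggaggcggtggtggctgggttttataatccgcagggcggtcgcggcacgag

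These windows differ in base composition: G and C made up 72.8% of the window of Anpep and 67.2% of that shown for Ace (58.0% of its other window), against 52.4% for Enpep, 43.6% for Dpp4 and 41.6% for Mep1a. The median over all 32851 windows of the table was 52.4%. The log2 ratios of Anpep, Ace and Dpp4 were -0.13 to -0.15, and that of Mep1a was -0.86. Whether the base composition of a window goes with the ratio was not tested. The letters searched were CAAAGTCCA for HNF4, GTTAATNAT for HNF1, TTTATNG for CDX2 and AGATAA for GATA factors. None of the first or second was in a window of the 7 members in the table, and they were in 0.384% and 0.737% of all windows. The CDX2 letters were in the windows of Dpp4 (228 bases before the start, on the opposite strand) and Tmprss15, and in 9.81% of all windows. The GATA letters were in that of Dpp4 alone (32 bases before the start), and in 9.99% of all windows. The start of Anpep used here lies 12849 bases inside the outer end of the GENCODE gene. An upstream start used in myeloid cells is known for this gene, and the averages do not separate starts.

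The regulators themselves were measured in the list of epithelial transcription factors, of which 11 of 12 passed the filter, 4 higher and 7 lower, with a median log2 ratio of -0.19. Elf3 (310 and 185 units, log2 ratio -0.74), Klf4 (-0.67), a factor of differentiated cells, and Cdx1 (-0.41) were lower, and Klf5 (0.30), a factor of crypt cells, was higher. Hnf4a (246 and 229 units, -0.11) and Cdx2 (129 and 138 units, 0.10), named after their values were seen since their letters were searched, were close to level.

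Other peptidases at the cell surface were split as well. Of 10 that passed the filter, 6 were lower and 4 higher, 2 of them at least 2-fold lower, and the median log2 ratio was -0.32. Ggt1 (gamma-glutamyltransferase, which opens glutathione) was at 211 and 86.7 units (wild type first, log2 ratio -1.28). Dpep1 (a dipeptidase) was at 629 and 307 units (-1.03), and Xpnpep2 (an aminopeptidase for peptides with proline) at 83.1 and 60.3 units (-0.46). These 3 stood below Ace, Dpp4 and Anpep in log2 ratio. The 4 higher genes, between 0.18 and 0.36, included 2 membrane serine proteases, Tmprss2 and Tmprss4, named after their values were seen.

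Peptidases inside the cell finish the digestion of absorbed peptides. Of 16 that passed the filter, 10 were higher and 6 lower (12 and 4 under 3 of the other scalings), none by 2-fold, with a median log2 ratio of 0.20 and a mean of 0.03. Their summed level went the other way, from 1294 units in wild type to 1024 units in TLR4ΔIEC. The most abundant, the dipeptidase Cndp2 (508 and 300 units, -0.76), and the proline dipeptidase Pepd (205 and 119 units, -0.78) were lower, as was Pgpep1 (-0.80), while Rnpep (0.27) was higher. The median was -0.03 over genes of at least 20 units. Transporters that take up the products had 7 of 10 lower and a median of -0.25: Slc6a20a, for proline, was at -1.20, Slc6a19, for neutral amino acids, at -0.67, Slc7a9 at -0.32, and the peptide carrier Slc15a1 at 65.3 and 53.0 units (-0.30).

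Other parts of the same membrane were mixed as well. Of the disaccharidases and phosphatases, 4 of 6 passed the filter, with a median of -0.43: the phosphatase Alpi was at 146 and 56.2 units (-1.36), whereas the sugar-cutting Sis (-0.07, and above 0 under 4 of the other scalings) and Mgam (0.20) were close to 0. This median was -0.07 over genes of at least 20 units. All 12 genes of brush border structure were lower (10 or 11 under 4 of the other scalings, where Vil1, and under quantile normalization also Pls1, lay above 0), with a median of -0.32, led by Pdzk1 (-2.13), Espn (-0.83), Slc9a3r1 (-0.81) and Cdhr5 (-0.62). Pdzk1 overlaps other genes, so its value is uncertain. Nearest to 0 in that list was villin, Vil1 (589 and 584 units, -0.01, chosen after its value was seen).

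**Figure D4:**
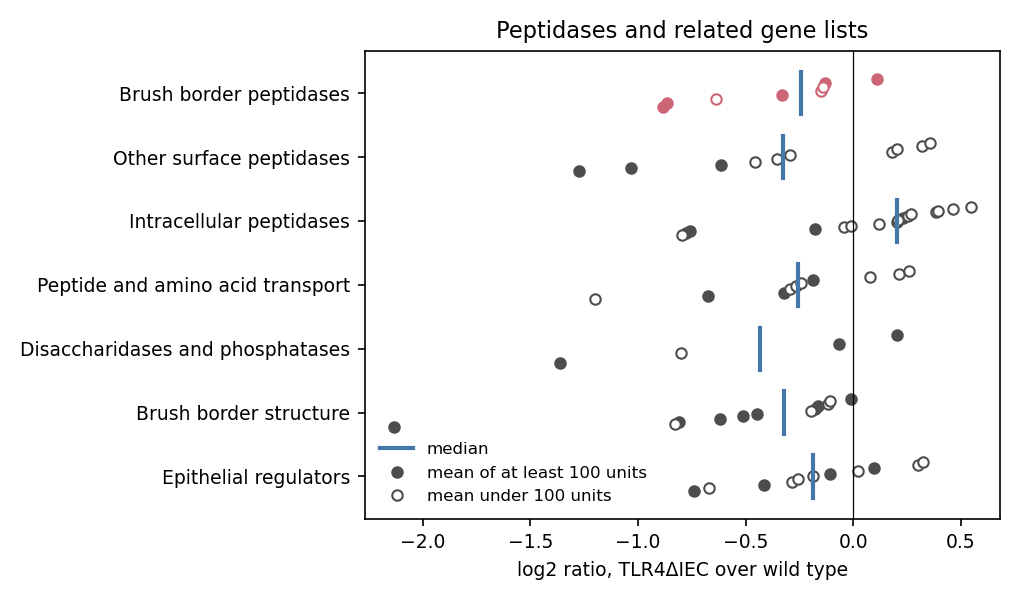
Log2 ratio of TLR4ΔIEC over wild type for the peptidases and 6 related gene lists, with 1 circle per gene above the filter, filled where the mean is at least 100 units. The vertical bar is the median of each list. The peptidases run from -0.88 to 0.11 with a median of -0.24, and the intracellular peptidases are the list with a median above 0 (0.20).

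The list of hormones and other peptides that surface peptidases act on, and of their receptors, had 8 of 16 genes above the filter. Of these genes 4 were higher and 4 lower, with a median of -0.04 and 3 at least 2-fold lower. Gcg, whose products Dpp4 cuts, was at 61.4 and 61.5 units (0.00). Pyy, also cut by Dpp4, was at 50.3 and 19.0 units (-1.36), and neurotensin (Nts) at 88.6 and 26.3 units (-1.72). Angiotensinogen (Agt), at the head of the chain that Ace and Enpep cut, was at 24.2 and 6.70 units (-1.71) and was named after its value was seen. Below the filter, both columns held little of the receptor genes Agtr1a and Agtr1b (at most 1.08 units), likewise named after their values were seen.

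Markers of other cells differed between the pools as well, and their part in the peptidase values was not tested. The 8 epithelial markers summed to 8294 and 7878 units (wild type first), 5 lower and 3 higher (4 and 4 when scaled to the total), and scaling to their median, a choice made after the data were seen, left 7 of 8 peptidases lower, with a median of -0.17. Crypt and division genes summed to 244 and 382 units, of which Olfm4 made up 133 and 224 units, with 5 of 6 above the filter higher. T cell markers summed to 50.5 and 77.8 units, macrophage and dendritic cell markers to 908 and 1686 units (218 and 296 units without Lyz2, with C1qa at 65.8 and 62.2 units), and endothelial markers to 28.2 and 34.4 units, with 1 of 8 (Pecam1) above the filter. Dpp4, Anpep and Ace, which such cells also carry, were each slightly lower in the same column. Fibroblast markers summed to 120 and 166 units, of which Dcn made up 72.0 and 113 units, with 4 of 5 above the filter higher. Smooth muscle markers summed to 840 and 964 units. Along the gut, ileal enterocyte markers summed to 20481 and 16347 units (5 of 6 lower), markers of the upper small intestine to 203 and 37.7 units, of which Fabp1 made up most. Colon markers summed to 2340 and 2961 units, nearly all from Ang4 (2156 and 2745 units), which Paneth cells of the small intestine also make, while the colon genes Car1 (0.14 and 0.18 units) and Aqp8 (0.11 and 0.13 units) were near the bottom of the table. Fat cell markers summed to 65.4 and 20.9 units, with all 4 above the filter at least 2-fold lower, and immediate early genes, which respond to tissue handling, to 286 and 134 units, with all 6 above the filter lower. No marker in these lists was listed at 0 in either column.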

How the data were processed

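Average coverage per RefSeq transcript entry was deposited by the authors as a signal in reads per base, 1 column for each genotype, per the file headers. The labels give all 3 mice of a genotype the same column. The submitters' processing notes name TopHat2 2.0.10, Bowtie2 2.1.0 and build mm10, with no role. Not given in the sources used here are the averaging tool, the read length and the use of strand, so there is no counting interval. Library preparation ended with PCR.

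Of 22001 entries in both columns, 21950 symbols were kept (the highest entry of a repeated symbol). Columns were scaled by the median of ratios (factor 1.05). Genes were kept from a mean of 5 units (coverage 3.41 and 3.58, wild type first), compared by size of difference only, and counted as called at 2-fold. Bases of reads were recovered as the coverage times the shortest length that makes both averages whole (tolerance 1e-09), or a multiple of it that matches the transcript. Gene positions are from GENCODE vM21 and promoters from RefSeq. Named genes are all 9 members, Tlr4 and, of each of 8 lists, up to 4 genes with the largest absolute log2 ratio and at least 20 units; 1 gene that the rule takes is not reported here. Other genes were named after their values were seen. The members and lists were chosen with earlier results of these data known. Steps were tested on simulated data. There were 11 alternatives of scaling, pseudocount, filter and entry, and 1 added later. Python 3.11.15, numpy 2.4.6 and pandas 2.3.3 were used.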

Additional observations from a re-analysis of the deposited data

How the results depend on the processing

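Each genotype has 1 pooled column, so no mouse could be left out. No paired analysis was possible because the columns hold no value per mouse. Under 11 alternative settings and the scaling to epithelial markers, a setting chosen after seeing the data, each of the 8 peptidases above the filter kept its side of 0 wherever it was tested, and none reached 2-fold. The number lower was 7, or 6 with a filter at 20 units, which leaves out Mme. The median of the peptidases ranged from -0.24 to -0.14, the latter after scaling by sums that leave out the 50 most covered genes, which also moved the median of all genes from 0.03 to 0.12. Naaladl1 ranged from -0.89 to -0.71, Mep1a from -0.87 to -0.70, Mme from -0.69 to -0.49, Enpep from -0.33 to -0.23, Dpp4 from -0.15 to -0.05, Ace from -0.14 to -0.04, Anpep from -0.13 to -0.03 and Mep1b from 0.11 to 0.29. Medians of 3 related lists changed sign: other surface peptidases were at 0.01 with no filter, intracellular peptidases at -0.03 with a filter at 20 units, and hormones and receptors ranged from -1.36 to 0.17. The cause was not tested. Depth in reads is unknown.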
